A study of Mus musculus with 6 samples.

Results

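The immediate early response genes described here are 10 genes named by their function: the AP-1 subunits Fos, Fosb, Jun, Junb and Jund, the transcription factors Egr1 and Atf3, and the early response genes Ier2, Dusp1 and Zfp36. They were found by gene symbol, and all 10 were among the 11955 rows of the table. RNA was sequenced in 3 libraries with the genotype label Eldr cKI and 3 labelled control, all from mouse samples described as chondrocytes, in work on how the lncRNA Eldr bears on senescence of these cells. Values of a group are listed in the order of replicates 1, 2 and 3. The sources used here give no age, strain or driver of the cKI allele and do not say whether the samples came from separate animals, so the spread between libraries may be technical. The level of Eldr itself was not analysed here, so the genotype labels were not checked against it.

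Immediate early genes are transcribed within minutes of a stimulus such as serum, wounding, cytokines or tissue dissociation, without the need for new protein synthesis. Fos and Jun family proteins pair through leucine zippers into the AP-1 transcription factor, which binds DNA in the promoters and enhancers of later response genes. Dusp1, a phosphatase of MAP kinases, and Zfp36, which binds AU-rich messenger RNAs and promotes their decay, limit the same response. In cartilage AP-1 is known as an activator of matrix-degrading enzyme genes. Enzymatic isolation of cells is itself known to induce immediate early genes.

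In Eldr cKI none of the 10 genes passed the test against control, and the FPKM values (fragments per kilobase, scaled to the mapped fragments of each library) of the groups overlapped for every one of them. Over all 10772 genes tested, 0.0278% passed (limma, adjusted p at or under 0.05) and 3.78% had groups that did not overlap. Mean log2(FPKM + 1) was higher in Eldr cKI for 8 genes and lower for 2, Fos and Jun. Over all genes tested, 48.9% were higher. With 1 library left out, the number higher was lowest without control replicate 3 (6 of 10) and without control replicate 2 (6 of the 9 then in the fit). Jun and Jund were the 2 genes listed above 0 in all 6 libraries. Fos, after which the family is named, was listed above 0 in a single control library. Fosb, Ier2, Egr1 and Zfp36 had the largest positive log2 fold changes, between 1.98 and 2.20, each with a standard error of over 1.

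By a rough estimate the libraries were shallow, and this touches every value below. An estimate of the worth of 1 fragment was read from the steps between low FPKM values in genes with a single annotated transcript. It gave about 103363, 69111 and 239144 fragments in Eldr cKI and about 167566, 64167 and 84349 in control. The step read need not be 1 whole fragment, so these depths are less exact than their digits. In the table as a whole 46.8% of values were listed at 0, also for genes that every cell uses, so a 0 is given only as listed at 0. Mitochondrially encoded genes held 8.51% to 68.3% of all FPKM, and predicted genes (Gm followed by a number) held 67.3% in Eldr cKI replicate 1 and 4.97% to 17.9% elsewhere. The label chondrocyte was not borne out by its markers. Of 18 chondrocyte markers 8 had a row, their summed FPKM ranged from 2.06 to 12.8 per library, Col2a1 was listed at 0 in 4 libraries, and Acan had no row. Cardiomyocyte markers summed to 1379 to 5773 FPKM per library. Photoreceptor markers summed to at most 5.51 FPKM in Eldr cKI and to 993, 1308 and 0 in control, and hepatocyte markers to 73.1 to 270 FPKM in Eldr cKI and to 127, 563 and 8368 in control. In such bulk samples fewer cells of a type and less RNA per cell cannot be told apart.

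Of the 60 values of the 10 genes, 18 were listed at 0, which is 30.0%. Per library, 7, 9 and 8 of the 10 genes were listed above 0 in Eldr cKI, and 9, 6 and 3 in control. Over all rows the shares listed above 0 were 37.0%, 48.6% and 70.2% in Eldr cKI, and 75.0%, 43.3% and 45.3% in control. Control replicate 3 listed only Jun, Jund and Dusp1. Dividing each value by the worth of 1 fragment on the longest annotated transcript gives a rough number of fragments behind it. On that scale 12 of the 42 values above 0 rested on fewer than 1.5 fragments and 19 on more than 5. The estimates are least certain for genes with several transcripts, whose lengths differ. They also fell under 1 in genes with 1 transcript, in control replicate 2 at about 0.29 for Jund and 0.77 for Ier2. The estimated step therefore need not be 1 whole fragment.

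**Figure D1:**
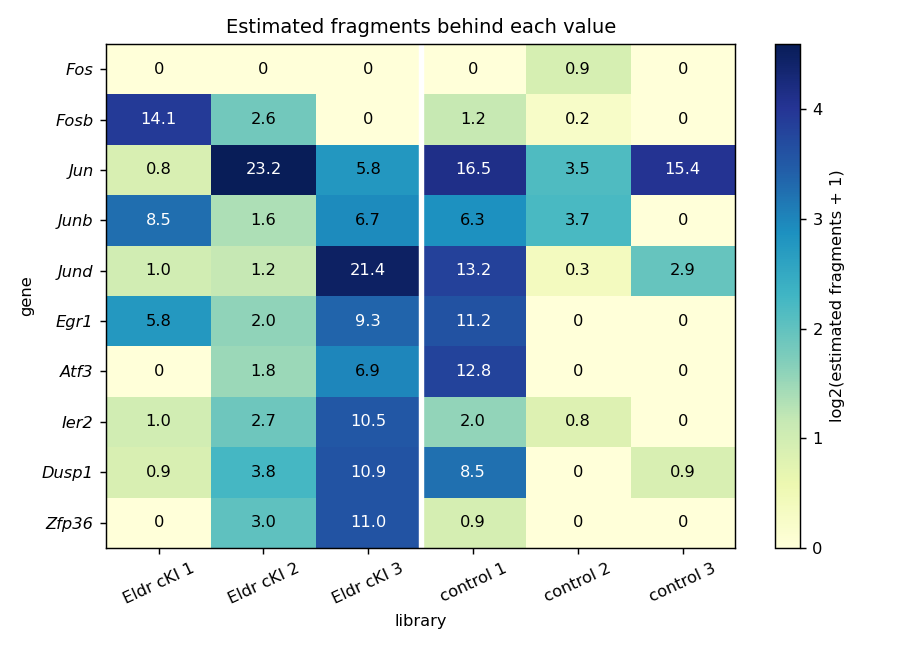
Estimated fragments behind each value of the 10 immediate early genes (rows) in the 3 Eldr cKI and 3 control libraries (columns), with the colour giving log2(estimated fragments + 1). Eldr cKI replicate 3 and control replicate 1 hold most of the fragments, and Fos has 0.90 in control replicate 2 and none elsewhere.

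Fos (ENSMUSG00000021250.13, chromosome 12, 85473890 to 85477273, plus strand, GRCm38) encodes the founding AP-1 partner of Jun and has 4 annotated transcripts. It was listed at 0 FPKM in all 3 Eldr cKI libraries, and at 0, 6.63 and 0 FPKM in control. The single value above 0 corresponds to about 0.90 fragments, and since the other 5 values are listed at 0 no fold change is given. It did not pass the test (limma, adjusted p = 0.959).

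The RefSeq promoter window of Fos, from 250 bases before to 50 after the annotated start (GRCm38.p6, chr12:85473640-85473939, plus strand), is shown because Fos is the founding member of the family and was listed above 0 in a single library. Beside it stand the windows of Dusp1 (chr17:26508423-26508722, minus strand) and Zfp36 (chr7:28379179-28379478, minus strand). Both were listed above 0 in Eldr cKI replicates 2 and 3 and control replicate 1, as was every other member but Fos and Fosb. Dusp1 was also listed above 0 in Eldr cKI replicate 1 and control replicate 3. Capitals mark matches to the TATA box TATAAA on the gene's strand, and, on both strands, to the cyclic AMP response element TGACGTCA, the AP-1 site TGANTCA and the CArG box, the site of serum response factor.
Fos: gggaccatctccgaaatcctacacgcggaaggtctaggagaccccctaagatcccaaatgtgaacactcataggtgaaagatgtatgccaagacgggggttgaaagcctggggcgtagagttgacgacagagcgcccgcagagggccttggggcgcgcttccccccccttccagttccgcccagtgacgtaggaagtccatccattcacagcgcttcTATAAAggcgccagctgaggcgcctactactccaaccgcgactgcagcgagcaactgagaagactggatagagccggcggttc
Dusp1: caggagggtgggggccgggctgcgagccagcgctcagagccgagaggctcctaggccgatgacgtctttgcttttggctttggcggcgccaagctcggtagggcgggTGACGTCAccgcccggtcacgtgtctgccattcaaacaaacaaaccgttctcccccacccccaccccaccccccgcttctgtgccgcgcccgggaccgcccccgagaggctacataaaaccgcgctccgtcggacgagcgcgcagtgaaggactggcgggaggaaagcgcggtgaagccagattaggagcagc
Zfp36: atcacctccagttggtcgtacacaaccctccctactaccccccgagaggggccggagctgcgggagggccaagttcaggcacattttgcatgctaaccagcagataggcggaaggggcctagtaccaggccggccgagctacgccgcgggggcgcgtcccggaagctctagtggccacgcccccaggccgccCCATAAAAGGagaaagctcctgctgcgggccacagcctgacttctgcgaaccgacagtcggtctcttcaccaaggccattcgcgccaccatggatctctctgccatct
RefSeq windows were at hand for 8 of the 10 genes. Among these 8, the CArG box was found in 1 (Zfp36), TGACGTCA in 1 (Dusp1), TATAAA in 2 (Fos and Junb) and TGANTCA in 0. Over all 32851 windows the shares with a match were 1.63%, 1.79%, 8.32% and 7.81%. Counted from the annotated start of the window, the TATAAA match lay at -33 in Fos and at 1 in Junb. The Junb row begins at 84978718, inside its window (chr8:84978699-84978998, minus strand). The shorter TGACG, which lies within TGACGTCA, was found in 5 of the 8 (Fos, Fosb, Junb, Atf3 and Dusp1) and in 20.8% of all windows. The EGR site GCGNGGGCG was found in Fosb and Zfp36 and in 5.55% of all windows. The Jund window (chr8:70697489-70697788) ends before the start of the Jund row at 70698949, so it is not the promoter of the span measured. The Atf3 window (chr1:191183284-191183583) and the Zfp36 window lie inside their rows, which on the minus strand begin at 191218039 and 28380253. Both windows therefore stand at a start within the span measured, not at its outer end. Sites outside the windows were not sought, so a gene without a match here may have one farther away. These matches describe the letters in the window and were not tied to the values.

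Fosb (ENSMUSG00000003545.3, chromosome 7, 19302696 to 19310051, minus strand) encodes a second Fos family partner of Jun. It was listed at 36.1, 9.95 and 0 FPKM in Eldr cKI, and at 1.91, 0.749 and 0 FPKM in control. In Eldr cKI replicates 1 and 2 it lay above every control, and replicate 3 was at 0 like control replicate 3, so the groups overlapped. The value in Eldr cKI replicate 1 corresponds to about 14.1 fragments, in a library where Fos was listed at 0. The log2 fold change was 2.11 (SE 1.45) and did not pass (limma, adjusted p = 0.959). It was 0.94 when Eldr cKI replicate 1 was left out and 3.55 when replicate 3 was.

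**Figure D2:**
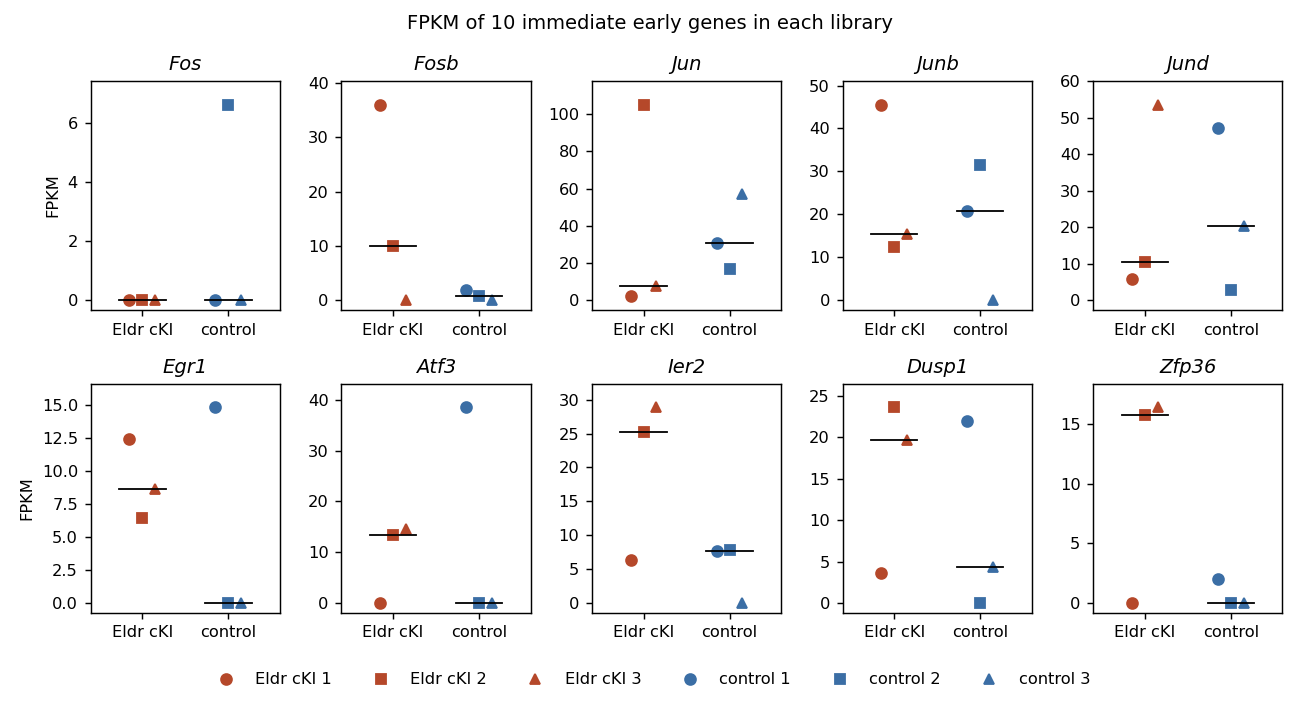
FPKM (y axis, a separate linear scale for each gene) of the 10 immediate early genes in Eldr cKI (left, red) and control (right, blue); symbols mark replicates 1, 2 and 3 and black lines the group medians. The groups overlap in every panel, and Jun ranges from 2.58 to 105 FPKM within Eldr cKI alone.

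Jun (ENSMUSG00000052684.4, chromosome 4, 95049034 to 95052222, minus strand) is the core AP-1 subunit and a gene of 1 exon and 1 transcript. It was at 2.58, 105 and 7.66 FPKM in Eldr cKI, and at 30.8, 17.0 and 57.1 FPKM in control. Eldr cKI held both the lowest values and the highest one, and the controls lay between them. The means were 38.4 ± 57.8 FPKM in Eldr cKI and 35.0 ± 20.4 FPKM in control (SD, n = 3 each). On the log scale, where the single high library weighs less, the fold change was -1.11 (SE 1.33) and did not pass (limma, adjusted p = 0.964). It was -2.53 when Eldr cKI replicate 2 was left out, -0.09 when replicate 1 was, and with array quality weights it turned to 0.21. In Eldr cKI replicate 2 Jun lay at the 96.7th percentile of genes listed above 0, and in Eldr cKI replicate 1 at the 40.7th. An antisense gene, Junos, overlaps Jun, and the sources used here do not say if counting was by strand.

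Junb (ENSMUSG00000052837.6, chromosome 8, 84974484 to 84978718, minus strand) encodes a Jun family protein that can replace Jun in AP-1 and activates many AP-1 sites more weakly. It was at 45.6, 12.5 and 15.4 FPKM in Eldr cKI, and at 20.8, 31.6 and 0 FPKM in control. All 3 Eldr cKI values fell within or above the control range, with control replicate 3 alone at 0. With a log2 fold change of 1.29 (SE 1.38) it did not pass (limma, adjusted p = 0.959), and without control replicate 3 the value was -0.29. Junb overlaps the gene Prdx2 on the opposite strand by 351 bases. Prdx2 was at 9.77, 4.74 and 20.9 FPKM in Eldr cKI, and at 45.5, 5.11 and 3.89 FPKM in control. The part of the overlap in the Junb values was not tested.

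Jund (ENSMUSG00000071076.6, chromosome 8, 70698949 to 70700616, plus strand) encodes the Jun family member that most cells express without stimulation. It was at 5.80, 10.6 and 53.7 FPKM in Eldr cKI, and at 47.2, 2.71 and 20.5 FPKM in control. The high and low libraries were spread over both groups, with Eldr cKI replicate 3 and control replicate 1, the deepest libraries, at the top. The means were 23.4 ± 26.3 FPKM in Eldr cKI and 23.5 ± 22.4 FPKM in control (SD, n = 3 each). The log2 fold change was 0.06 (SE 1.37, limma adjusted p = 0.999), with a 95% interval from -2.62 to 2.74, which takes in large differences either way. Its sign turned when control replicate 2 (-0.98) or Eldr cKI replicate 3 (-0.82) was left out. The antisense gene Gm11175 overlaps Jund.

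Taking the 3 Jun family genes together, they made up 48.0%, 57.6% and 46.5% of the summed FPKM of the 10 genes in Eldr cKI, and 53.2%, 77.1% and 94.7% in control. Their share was highest in the 2 libraries that listed the fewest of the other genes. The gene with the highest FPKM of the 10 was Junb, Jun and Jund in Eldr cKI, and Jund, Junb and Jun in control. No fixed order among the 3 was seen, and differences between their levels lay within the spread between libraries.

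Egr1 (ENSMUSG00000038418.7, chromosome 18) encodes a zinc finger transcription factor induced through serum response factor and its partners. It was at 12.4, 6.43 and 8.67 FPKM in Eldr cKI, and at 14.9, 0 and 0 FPKM in control. It was listed in all Eldr cKI libraries and in 1 control, but that control had the highest value of the 6. Its log2 fold change of 1.98 (SE 1.45) did not pass (limma, adjusted p = 0.959). It ranged from 1.31 without control replicate 2 or 3 to 3.30 without control replicate 1, the library with the high value.

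Atf3 (ENSMUSG00000026628.13, chromosome 1, 191170296 to 191218039, minus strand) encodes a stress-induced bZIP factor that can pair with Jun proteins. It was at 0, 13.4 and 14.6 FPKM in Eldr cKI, and at 38.6, 0 and 0 FPKM in control. Control replicate 1 again held the highest value, about 12.8 fragments, and 3 of the 6 libraries listed the gene at 0. Mean FPKM was lower in Eldr cKI, at 9.35 ± 8.12 against 12.9 ± 22.3 in control (SD, n = 3 each). On the log scale, where the single high library weighs less, the fold change was 0.84 (SE 1.45) and did not pass (limma, adjusted p = 0.999). It was -0.048 without control replicate 2 or 3 and 2.61 without control replicate 1.

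Ier2 (ENSMUSG00000053560.4, chromosome 8, 84661331 to 84662852, minus strand) encodes a small nuclear protein of the early growth factor response, in a gene of 1 exon with no overlapping annotated gene. It was at 6.31, 25.3 and 28.9 FPKM in Eldr cKI, and at 7.69, 7.85 and 0 FPKM in control. Replicates 2 and 3 of Eldr cKI lay above every control, whereas replicate 1 lay among the controls. In fragments the Eldr cKI values were about 0.99, 2.66 and 10.5, against about 1.96 and 0.77 in control replicates 1 and 2. The log2 fold change was 2.07 (SE 1.42) and did not pass (limma, adjusted p = 0.959), and it ranged from 1.03 without control replicate 3 to 2.72 without Eldr cKI replicate 1.

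Dusp1 (ENSMUSG00000024190.6) inactivates the MAP kinases that induce it. Its row spans 26505590 to 26508519 of chromosome 17 (minus strand), whereas the annotated GENCODE M21 gene ends at 26562128. It was at 3.59, 23.6 and 19.7 FPKM in Eldr cKI, and at 21.9, 0 and 4.37 FPKM in control. The libraries Eldr cKI replicates 2 and 3 and control replicate 1 had close values, from 19.7 to 23.6, and the rest were low or at 0. With a log2 fold change of 1.42 (SE 1.43) it did not pass (limma, adjusted p = 0.959). It was 0.26 without control replicate 2 and 2.52 without control replicate 1.

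Zfp36 (ENSMUSG00000044786.6, chromosome 7, 28376784 to 28380253, minus strand) was at 0, 15.8 and 16.4 FPKM in Eldr cKI, and at 1.99, 0 and 0 FPKM in control. The same pair of Eldr cKI libraries that were high in Ier2 and Dusp1 stood apart here, with about 3.04 and 11.0 fragments, while the value in control replicate 1 corresponds to about 0.93. The log2 fold change of 2.20 (SE 1.44) was the highest of the 10 and did not pass (limma, adjusted p = 0.959). It was 1.51 when Eldr cKI replicate 3 was left out and 3.57 when replicate 1 was. The antisense gene Gm44710 overlaps Zfp36.

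**Figure D3:**
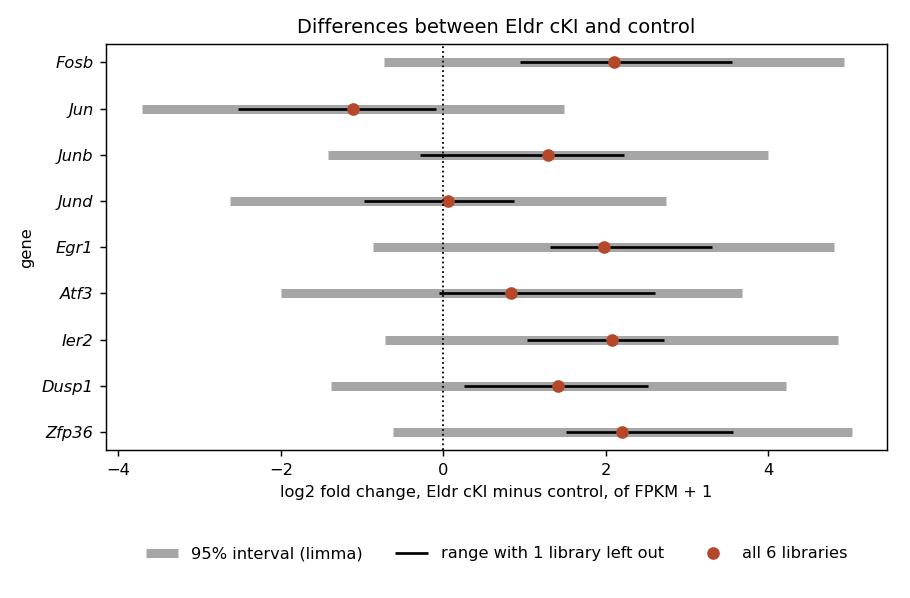
Log2 fold change of FPKM + 1, Eldr cKI minus control (x axis), for 9 of the 10 immediate early genes (rows); Fos is left out because it is listed at 0 in every Eldr cKI library. Points are the fit over all 6 libraries, grey bars its 95% interval and black lines the range when 1 library is left out. The intervals rest on the trend across genes, not on each gene's own spread. All 9 intervals cross 0, from Jun at -1.11 to Zfp36 at 2.20.

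Across the whole table, limma called 3 of 10772 genes, which is 0.0278%, at an adjusted p of 0.05, and 0 of the 10 immediate early genes. At an unadjusted p under 0.05 it gave 252 genes, or 2.34%, and again 0 of the 10, with the smallest at 0.126 for Zfp36. In the authors' deposited table, of 11955 rows 237, or 1.98%, had a p under 0.05, and 0 of the 10, whose p-values there ran from 0.167 to 0.970. Groups did not overlap in 407 genes, or 3.78%, and in 0 of the 10. The median log2 fold change of the 10 genes was 1.35, or 1.42 without Fos, against -0.04 over all genes tested. It was 2.50 without control replicate 1 and 0.66 without control replicate 3. The 10 genes shared the same few libraries, so this median is not the sum of 10 separate observations. The limma standard errors are drawn from the trend across genes, and the residual SD of the 9 genes other than Fos was 1.51 to 2.69 on the log2 scale.

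Summed over the 10 genes, the groups overlapped as well. Their summed FPKM was 112, 223 and 165 in Eldr cKI, and 186, 66.5 and 81.9 in control. Control replicate 1 thus lay above 2 of the 3 Eldr cKI libraries. As a percentage of the summed FPKM of 18 housekeeping genes, the sum was 10.1%, 9.02% and 4.34% in Eldr cKI, and 5.93%, 3.71% and 4.42% in control. On this scale Eldr cKI replicates 1 and 2 were above every control and replicate 3 was below 2 of them. With mitochondrial and predicted genes removed and each library rescaled to 1000000, the sum was 2456, 2037 and 1129 in Eldr cKI, and 1476, 697 and 713 in control, and the groups overlapped again. Which Eldr cKI library stood lowest therefore depended on the denominator: replicate 1 in FPKM and replicate 3 in the other 2 measures.

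**Figure D4:**
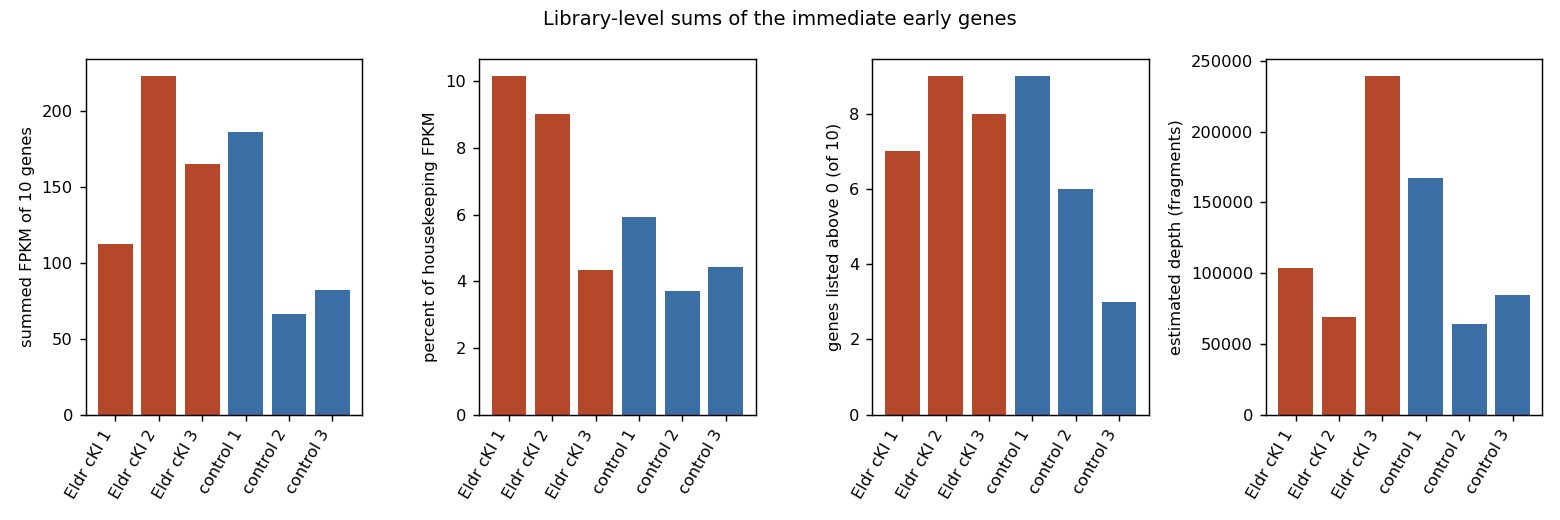
Bars give, for each Eldr cKI (red) and control (blue) library, the summed FPKM of the 10 immediate early genes, that sum as a percentage of housekeeping FPKM, the number of the 10 genes listed above 0, and the estimated depth in fragments. Control replicate 1 sits with the Eldr cKI libraries in the panels of summed FPKM and of genes listed above 0, and control replicate 3 lists 3 of the 10 genes.

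The wider set of early response genes was written as a list of 50, of which 39 were in the fit. Of these, 0 were called by limma and 3 had an unadjusted p under 0.05. They had 19 positive and 20 negative log2 fold changes, and a median log2 fold change of -0.03. Over all genes tested, 0.0278% were called, 2.34% had an unadjusted limma p under 0.05 and 48.9% had a positive log2 fold change. These shares also apply to the related lists below. Myc, a growth-regulating transcription factor and the highest of this list, was at 28.7, 41.5 and 87.7 FPKM in Eldr cKI, and at 67.1, 0 and 0 FPKM in control. As with Egr1, all Eldr cKI libraries and control replicate 1 listed it, and it missed the threshold (log2 fold change 3.56, SE 1.38, limma adjusted p = 0.959). The fold change was 5.59 without control replicate 1, and 2.55 without control replicate 2 or 3, where the unadjusted limma p was 0.105 and 0.151. Klf6, a zinc finger factor, was at 0, 35.5 and 102 FPKM in Eldr cKI, and at 59.9, 0 and 8.83 FPKM in control. Mcl1, a survival protein of the Bcl-2 family, was at 7.90, 33.4 and 59.7 FPKM in Eldr cKI, and at 37.3, 39.1 and 6.87 FPKM in control. Both were under 10 FPKM in Eldr cKI replicate 1 and control replicate 3. Id1, an inhibitor of basic helix-loop-helix factors, was listed above 0 in Eldr cKI replicate 3 and control replicate 1 only, at 116 and 57.2 FPKM.

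Among the 39, an unadjusted p under 0.05 was found for Myc, Nfkbia and Nr4a2, of which the last 2 were chosen after their values were seen. Nr4a2, an orphan nuclear receptor of the early response, was at 12.3, 20.0 and 6.73 FPKM in Eldr cKI, and listed at 0 in all 3 controls. Nfkbia, the inhibitor of NF-kB, was at 91.4, 0 and 35.7 FPKM in Eldr cKI, and likewise listed at 0 in all 3 controls. The groups did not overlap for Nr4a2 and did for Nfkbia, where Eldr cKI replicate 2 was at 0. Neither passed over all genes (limma, adjusted p = 0.959 for each), and the unadjusted limma p of Nfkbia was 0.0932 without Eldr cKI replicate 1.

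Partners and relatives of AP-1 had 18 of 20 listed genes in the fit, 0 called by limma and 0 with an unadjusted p under 0.05, 11 positive and 7 negative log2 fold changes, and a median log2 fold change of 0.55. Atf4, the translationally controlled factor of the integrated stress response, was at 51.2, 76.3 and 102 FPKM in Eldr cKI, and at 80.4, 46.6 and 34.3 FPKM in control. It was above 0 in every library at values over 30, unlike any of the 10 immediate early genes, and its log2 fold change was 0.54 (SE 1.16). Cebpb, a bZIP factor of the acute phase response, was at 0, 60.3 and 3.09 FPKM in Eldr cKI, and at 48.4, 0 and 0 FPKM in control. Nfe2l2, the antioxidant response factor, was at 0, 10.7 and 44.2 FPKM in Eldr cKI, and at 14.0, 4.08 and 0 FPKM in control. Both had no value above 0 in Eldr cKI replicate 1 and control replicate 3. Atf2, a Jun partner activated by phosphorylation, had a log2 fold change of -0.19 (SE 1.42). The remaining Fos relatives, chosen after their values were seen, were low. Fosl1 was above 0 in Eldr cKI replicate 3 and control replicate 1, at 4.90 and 8.44 FPKM, and Fosl2 stayed at or under 8.29 FPKM in every library.

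The kinases and factors upstream of these genes had 27 of 30 in the fit, 0 called by limma and 1 with an unadjusted p under 0.05, 10 positive and 17 negative log2 fold changes, and a median of -0.07. Mapkapk2, the kinase that phosphorylates Zfp36 downstream of p38, was at 16.9, 40.2 and 29.1 FPKM in Eldr cKI, and at 6.82, 0 and 3.90 FPKM in control. Its groups did not overlap, its log2 fold change was 3.06 (SE 1.42), and it missed the threshold (limma, adjusted p = 0.959). Without control replicate 2 the value was 2.18, with an unadjusted limma p of 0.180. Mapk3, the kinase ERK1, was at 0, 12.8 and 26.8 FPKM in Eldr cKI, and at 22.2, 37.1 and 10.5 FPKM in control. Crebbp, a coactivator of the pathway, had a log2 fold change of -0.07 (SE 1.41). A list of cofactors of Egr and Zfp36 proteins, with relatives of Dusp1 and Zfp36, had 17 of 18 in the fit. This list, which includes the Cnot deadenylase subunits, had 0 called by limma and 1 with an unadjusted p under 0.05. It had 10 positive and 7 negative log2 fold changes, and a median of 0.36. In that list Zfp36l1, a relative of Zfp36, and Cnot1, the deadenylase scaffold, were above 0 in all 6 libraries, with log2 fold changes of -0.52 (SE 1.30) and 0.16 (SE 1.33). Cnot2 (-1.95, SE 1.38) and the phosphatase Dusp4 (0.40, SE 1.41) did not pass either.

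The genes whose profile over the 6 libraries was most like the mean log2(FPKM + 1) of the 10 were, among 2056 candidates, Brd2, Mtmr3, Rbm25, Hspa1a and G430049J08Rik, with Pearson's r between 0.974 and 0.990. Hspa1a, an inducible heat shock protein, was at 25.2, 51.3 and 41.7 FPKM in Eldr cKI, and at 37.3, 21.8 and 18.6 FPKM in control. The points share library composition and depth, and with 6 points many genes reach a high r.

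Housekeeping genes and epithelial markers were highest in Eldr cKI replicates 2 and 3 and control replicate 1, the 3 libraries with the highest summed FPKM of the 10 genes. The mean log2(FPKM + 1) over all genes was highest there too, at 0.92, 1.52 and 2.12 in Eldr cKI, and 2.16, 1.38 and 1.21 in control. The pattern is thus not particular to these lists. Housekeeping genes summed to 1107, 2470 and 3803 FPKM in Eldr cKI, and to 3134, 1792 and 1855 in control. Epithelial markers summed to 10.3, 224 and 531 FPKM in Eldr cKI, and to 368, 61.2 and 8.47 in control. Macrophage markers summed to 239, 287 and 12.6 FPKM in Eldr cKI, and to 224, 191 and 326 in control, with 8, 7 and 4 of the 12 above 0 in Eldr cKI and 9, 4 and 9 in control. Of 10 neutrophil markers 3 had a row, at a sum of 13.6, 79.1 and 35.6 FPKM in Eldr cKI, and of 22.8, 0 and 8.54 in control, while Ly6g, Mpo and Elane had none. The part of these cell types and of library composition in the values of the immediate early genes was not tested.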

How the data were processed

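The authors deposited an FPKM value per row and library (6 libraries), per the file headers. They also deposited 1 log2 fold change, its linear ratio, and a p-value with its q-value for every row. The 2 deposited group columns equal means of log2(FPKM + 1). Reads had passed through cutadapt, HISAT2 2.0.5 and StringTie, per the submitters' processing notes. Those notes name the human build hg19, whereas 11017 of the 11955 rows have the span that GENCODE M21 (mouse, GRCm38) gives their identifier, and coordinates are given on that build. Per the labels, either poly(A) capture or removal of ribosomal RNA came before library construction, and the sources used here do not say which for each library. No column of values from other samples was present (0).

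limma 3.58.1 in R 4.3.3 was fitted to log2(FPKM + 1) over the 6 libraries with group as the only term, on the 10772 rows with a mean FPKM of at least 0.5, with a mean-variance trend. All 10 immediate early genes entered. Benjamini-Hochberg adjustment ran over all 10772 rows, with a threshold of 0.05. The pseudocount of 1 understates changes of low genes. Intervals of 95% use the normal quantile of the SE. The fit was also run on simulated data. Gene length and spread between libraries were set there, not taken from these libraries, so that run does not gauge its power here. Depth was read from FPKM times length in genes with 1 transcript, as the densest step with a tolerance of 1%; 25.5% to 38.6% of low values lay within 0.05 of whole steps, so counts were not recovered. Genes named are the 10 members, the 4 highest of each related list and the 5 most alike among rows with a mean FPKM of at least 5; 1 gene that this rule names is not reported here. Marker genes and Prdx2 were named outside the rule, after their values were seen. Members and lists were chosen with earlier results of these data known. Summaries used Python 3.11.15, pandas 2.3.3, numpy 2.4.6 and matplotlib 3.10.9.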

Additional observations from a re-analysis of the deposited data

How the results depend on the processing

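The number of immediate early genes past the threshold was 0 in all 15 alternatives, where the smallest adjusted p of any of them was 0.642 (limma, Zfp36, array quality weights). Of 148 fold changes of the 10 genes under the alternatives, 140 kept their sign and 8 turned, in Atf3, Jun, Junb and Jund. Jun was 0.21 with array quality weights and 0.34 without control replicate 3 and Eldr cKI replicate 1 together, an alternative chosen after seeing the data, where Junb was -0.84. With 1 library or that pair left out, the log2 fold change ranged from -0.048 to 2.61 for Atf3, from -2.53 to 0.34 for Jun, from -0.84 to 2.22 for Junb and from -0.98 to 0.92 for Jund. The cause was not tested. Leaving out 1 library moved the median of all genes from -0.04 to between -0.61 (without Eldr cKI replicate 3) and 0.46 (without control replicate 1).

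Among all rows tested, 3 genes passed. The number was 8 with a pseudocount of 0.1, 1 with a filter at a mean FPKM of 5, 0 with no trend, 1 with quantile normalization, 17 with array quality weights, 0 without control replicate 3 and Eldr cKI replicate 1, and 0 to 12 with 1 library left out. With the replicate number as a block it was 5, and still 0 for the 10 genes. The labels do not say that numbers pair samples. Deviations from the group means correlated at -0.17, 0.03 and -0.15 for same-numbered libraries (Pearson, across genes). For differently numbered libraries they correlated at -0.07 to 0.24. Deviations of the libraries of a group sum to 0 by construction, so these values cannot decide whether numbers pair samples. Depth limits every value: the estimated worth of a single fragment was 0.93 to 10.2 FPKM for the 10 genes, depending on gene and library. This estimate is rough and not a floor, since some values above 0 lay under it.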
